A study of Mus musculus with 14 samples.

Results

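The genes examined were 10 immediate early activity genes, Fos, Fosb, Junb, Egr1, Egr2, Arc, Npas4, Nr4a1, Ier2 and Dusp1, chosen by symbol in the deposited gene table and joined to the count table by gene identifier. All 10 were found among the 55422 entries of the count table. They were measured by RNA sequencing in 14 libraries of brainstem tissue of 7 mice, and each animal gave both an immunoprecipitate (IP) and the homogenate from which it was drawn (pre-IP).

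Every animal carried TH-Cre, in which the tyrosine hydroxylase promoter drives Cre recombinase, together with Slc6a2-eGFP/Rpl10a, a green fluorescent ribosomal protein under control of the noradrenaline transporter gene, on a C57Bl/6 background. At 2 to 3 months of age the locus coeruleus was infused with P364S mutant human tau in 4 animals (B, C, L and M) and with EYFP, a fluorescent protein, in 3 (H, I and K). Each treatment thus has an IP and a pre-IP group, with 4 libraries each for tau and 3 each for EYFP. EYFP animals therefore shared the transgenes, the surgery and the tissue with the tau animals. The tag restricts the IP to ribosomes of Slc6a2-expressing cells only as far as the pull-down is clean, and the pre-IP holds RNA of all cells of the dissected tissue. No label states that animals were pooled, and nothing beyond the animal letter says how they were related. The p-values of tau against EYFP within a fraction thus measure the spread between these animals. Those of IP against pre-IP and of the interaction measure the spread between libraries. They take both libraries of an animal as separate, except where a block by animal is stated. In such bulk samples, fewer cells of a type and less RNA per cell cannot be told apart.

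Immediate early genes are transcribed within minutes of a stimulus, without new protein synthesis, from promoters that CREB, SRF and their partners already occupy or can reach quickly. In neurons, calcium entry and kinase cascades of the MAP kinase type switch them on, and their mRNAs decay fast, so their level is widely used as a mark of recent activity. The locus coeruleus is the main noradrenergic nucleus of the brain, and its neurons express Fos when arousing or stressful stimuli make them fire. These genes are also induced by tissue handling and in glia and vessels.

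Total counts ran from 41843489 to 65664551 per library, and 3 counts, taken as the floor of detection, equalled 0.0457 to 0.0717 CPM, the count per 1000000 counted reads in a library. The floor allows for counting error alone, because PCR copies cannot be told from separate molecules here. The human tau construct had 3527 to 47177 counts in tau libraries and 2 to 18 in both EYFP animals H and I, but 398 and 408 in EYFP animal K. Animal M, labelled female, had 674 Y-linked and 0 Xist counts in pre-IP, and 1153 and 21 in IP. The RNA integrity number (RIN) was 7.7 to 9 except for the EYFP IP of animal I, at 4.2. The RNA concentration of the IP was 0.1 to 0.8 ng per microlitre in tau animals and 0.7 to 2.8 in EYFP animals. The members' calls in IP against pre-IP and their median in tau IP against EYFP IP are given below without animal I, K or M. Other results are given without these animals only where stated.

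Promoter sequence was taken from a RefSeq table (GRCm38.p6) for 7 of the 10 genes, as 11 windows ending at an annotated start, 5 of them at Egr2. The 6 shown are those of the founding AP-1 gene Fos, of Junb and Dusp1, of the neuron-specific Npas4, of Nr4a1 with its 4 half-sites, and of 1 of the 3 Egr2 starts whose windows hold both motifs searched. Each run is the 250 bases upstream of the start, 5′ to 3′ on the strand of the gene. Capitals mark the cyclic AMP response element half-site TGACG on either strand and, at Egr2, the CArG box, which is the binding motif of SRF. A pair of facing half-sites forms the full element TGACGTCA.
Fos, plus strand, chr12:85473640-85473889: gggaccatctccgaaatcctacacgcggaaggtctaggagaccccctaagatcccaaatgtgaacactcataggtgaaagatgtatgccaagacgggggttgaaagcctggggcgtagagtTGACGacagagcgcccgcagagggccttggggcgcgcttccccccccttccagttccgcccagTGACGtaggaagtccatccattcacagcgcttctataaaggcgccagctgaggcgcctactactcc
Junb, minus strand, chr8:84978749-84978998: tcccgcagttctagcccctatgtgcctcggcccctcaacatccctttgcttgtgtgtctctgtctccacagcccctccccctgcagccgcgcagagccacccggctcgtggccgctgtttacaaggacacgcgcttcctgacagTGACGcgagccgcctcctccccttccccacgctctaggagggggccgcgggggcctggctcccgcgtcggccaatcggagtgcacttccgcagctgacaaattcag
Egr2, plus strand, chr10:67537619-67537868: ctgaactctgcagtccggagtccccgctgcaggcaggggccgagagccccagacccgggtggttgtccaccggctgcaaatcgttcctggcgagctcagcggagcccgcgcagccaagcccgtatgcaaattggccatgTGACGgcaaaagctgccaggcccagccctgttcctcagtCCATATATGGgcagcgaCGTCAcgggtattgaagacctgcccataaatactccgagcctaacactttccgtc
Npas4, minus strand, chr19:4989972-4990221: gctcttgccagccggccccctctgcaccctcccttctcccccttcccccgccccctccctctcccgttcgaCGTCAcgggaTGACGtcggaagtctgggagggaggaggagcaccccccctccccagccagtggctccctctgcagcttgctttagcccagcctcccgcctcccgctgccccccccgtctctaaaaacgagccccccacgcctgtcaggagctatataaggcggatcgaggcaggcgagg
Nr4a1, plus strand, chr15:101266596-101266845: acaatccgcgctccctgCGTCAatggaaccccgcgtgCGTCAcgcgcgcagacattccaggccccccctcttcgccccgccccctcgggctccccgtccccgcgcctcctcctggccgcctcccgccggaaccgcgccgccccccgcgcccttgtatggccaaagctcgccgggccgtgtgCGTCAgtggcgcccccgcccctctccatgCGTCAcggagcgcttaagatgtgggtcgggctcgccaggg
Dusp1, minus strand, chr17:26508473-26508722: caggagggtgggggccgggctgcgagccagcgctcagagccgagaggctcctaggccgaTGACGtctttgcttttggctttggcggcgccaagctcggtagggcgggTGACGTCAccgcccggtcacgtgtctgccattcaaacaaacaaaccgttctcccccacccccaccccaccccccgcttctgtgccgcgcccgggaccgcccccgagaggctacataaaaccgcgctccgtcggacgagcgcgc

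The half-site TGACG occurred in at least 1 window of all 7 genes and in 9 of the 11 windows, against 17.8% of 32851 windows of 250 bases in the same table. The 3 Egr2 windows among these 9 overlap and hold the same 2 half-sites and the same CArG box, so they are not separate matches. Counted from the start, the half-sites of Fos began at positions -129 and -66, that of Junb at -106 and those of Npas4 at -179 and -169. Nr4a1 held 4, beginning at -233, -213, -69 and -40. Dusp1 was the 1 gene of the 7 with the full TGACGTCA, spanning -143 to -136, an element found in 1.55% of all windows. A CArG box was found in 4 of the 5 windows of Egr2 and in no window of the other 6 genes, against 1.47% of all windows, and in the window shown it spanned -72 to -63. A match describes letters in the window and is neither a bound site nor a cause. The Fosb window held 1 half-site, beginning at -60. Arc, Ier2 and Egr1 were not among the windows used here.

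The 10 genes differed widely in abundance. Per kilobase of exon, Arc had the highest mean level in pre-IP, 26.3 CPM per kb ± 4.64 (SD, n = 7), above Dusp1 in all 7 libraries although their ranges touched. Dusp1 (18.8), Egr1 (16.8), Ier2 (13.1), Fos (12.8), Junb (8.70) and Nr4a1 (8.67) followed, with overlapping ranges from each to the next. Npas4 stood well below, at 0.598 CPM per kb ± 0.217 with no overlap with its neighbours on either side. Egr2 (0.189) and Fosb (0.188) were the lowest and could not be ordered. In IP, Arc (14.9) and Dusp1 (14.2) led again, and Egr1 stood after Ier2 and Fos. The single gap between neighbours in IP lay between Nr4a1 at 5.46 and Npas4 at 0.386 CPM per kb.

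The first comparison asked what the immunoprecipitate held relative to the homogenate. Egr1, Arc, Nr4a1 and Dusp1 were lower in IP than in pre-IP, by 1.06, 0.81, 0.68 and 0.39 on the log2 scale, and no member was higher. That is 4 of 10 members with an adjusted p under 0.05 in edgeR's quasi-likelihood test (Benjamini-Hochberg adjustment over 19472 genes), where 14.2% of all genes tested were called lower and 15.6% higher. All 10 estimates were negative, with a median of -0.51 against -0.004 over all genes. DESeq2 called 5 members lower (16.4% of genes) and limma voom 4 (16.1%). In the EYFP animals alone (n = 3) only Egr1 was called, where 2.41% of genes were called lower, and the members' median was -0.13. In the tau animals alone (n = 4) 5 were called lower, as were 10.3% of genes, and the median was -0.64. Leaving out 1 animal at a time gave between 2 calls (without C) and 6 (without H), with 5 without I, 4 without B or K and 3 without L or M. Over all genes, 2203 of 19745 were called lower without C and 2815 of 20239 without H. The number was 2680 of 20364 without I, 2869 of 19679 without B and 2498 of 20229 without K. It was 2145 of 19593 without L and 2325 of 19655 without M.

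The second comparison, named in the study's design, set tau IP against EYFP IP. Of the 10 members, 9 had a lower estimate in tau IP, with a median log2 fold change of -0.53 against -0.08 over all genes tested, and Egr2 had a higher one. None passed the threshold, as edgeR called 0 of 10 members and 0% of 19472 genes. At an unadjusted p under 0.05 there were 3 members (Fos, Arc and Dusp1), all lower in tau IP. Of all genes, 2336 reached that level in either direction and 791, or 4.06%, with a lower estimate in tau IP. DESeq2 and limma voom also called 0 members, with 2 and 3 at an unadjusted p under 0.05, although DESeq2 called 411 genes in all. Over all 19472 genes, 2714 with DESeq2 and 2969 with limma voom had such a p in either direction. Among the 10 members, DESeq2 gave an adjusted p only for Arc and Dusp1, so it could not call the others. Fos (Wald test, unadjusted p 0.00609) and Fosb were among these. Only Arc and Dusp1 thus had an adjusted p under all 16 alternatives to the test reported. Every tau library lay below every EYFP library for Fos, Junb and Dusp1, a pattern shown by 9.22% of genes, and no member had the opposite pattern, shown by 6.36%. The median was -0.61 without I, -0.50 without K and -0.60 without M. With library totals in place of the scaling, which was chosen after seeing the data, the median of all genes moved to -0.18 and that of the members to -0.61.

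In the homogenate the same contrast gave estimates near 0 for all 10 genes, between -0.08 (Egr1) and 0.16 (Junb). The median was 0.03 against 0 over all genes. edgeR called 0 members and 0% of 19197 genes at an adjusted p under 0.05, and 0 members had an unadjusted p under 0.05, against 2.84% of genes. DESeq2 and limma voom gave 0 members at both levels. In no member did the tau and EYFP libraries separate, whereas 1.78% of genes had every tau library below and 1.33% every tau library above. These values bound the change no more tightly than their errors, which ran from 0.13 for Dusp1 to 0.48 for Egr2 on the log2 scale.

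The interaction of treatment and fraction tests whether the tau difference differed between IP and pre-IP. Again 9 of 10 estimates were negative, with a median of -0.56 against -0.05 over all genes. edgeR called 0 members and 0% of 20495 genes, and 2 members (Fos and Junb) had an unadjusted p under 0.05 with a negative estimate. Of all genes, 1223 had such a p in either direction and 398, or 1.94%, with a negative estimate. DESeq2 called 0 members with 2 at an unadjusted p under 0.05, and limma voom 0 with 3. Over all 20495 genes, 1397 with DESeq2 and 1784 with limma voom had such a p in either direction. When IP and pre-IP were paired by animal in a block, 5 members (Arc, Fos, Junb, Nr4a1 and Egr1) had an unadjusted p under 0.05 and 0 were called. Of all 20495 genes, 1744 had such a p in that fit. With 1 animal left out and no block, the count of such members was 0 without B or H and 1 without C or I. It was 2 without L, 3 without K and 4 without M. Over all genes, 988 of 20232 had such a p in either direction without B and 744 of 21164 without H. The number was 1096 of 20295 without C and 649 of 21240 without I. It was 1280 of 20168 without L, 1385 of 21164 without K and 1728 of 20231 without M.

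**Figure D1:**
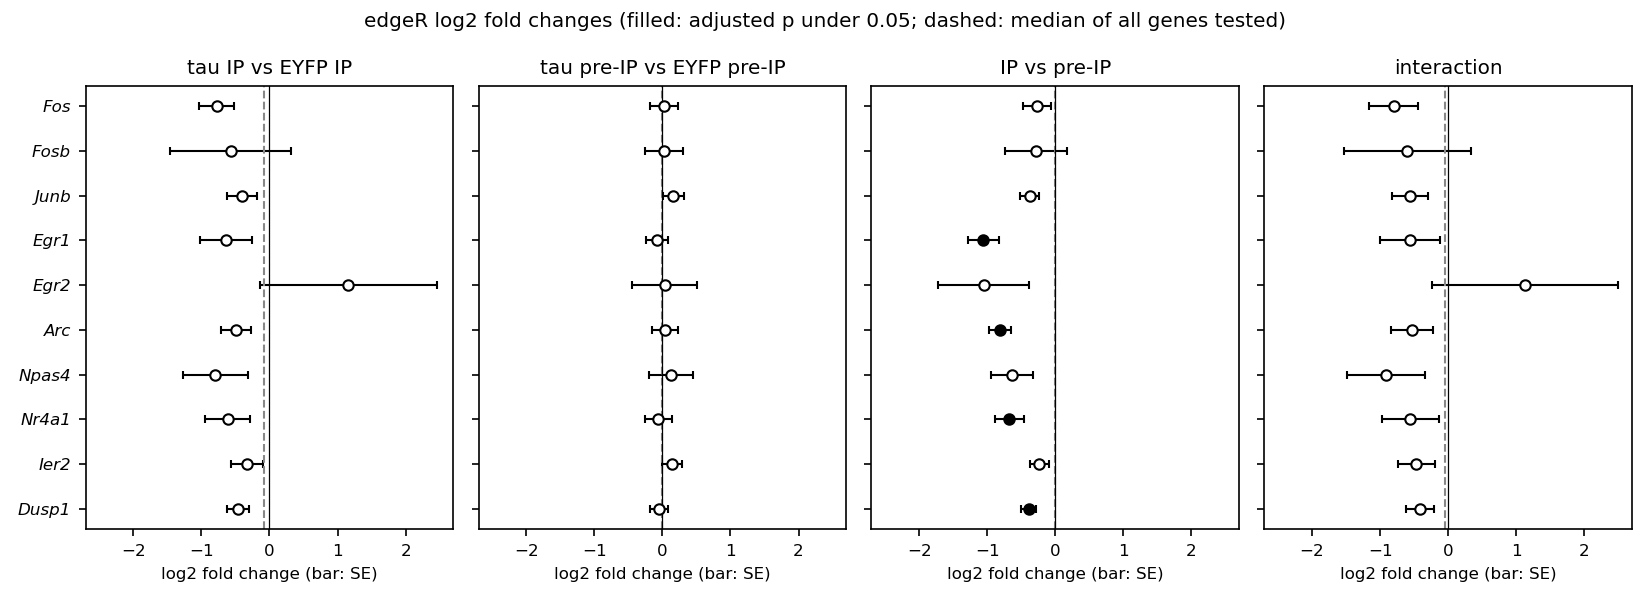
log2 fold changes of the 10 genes (points) with their standard errors (bars) in the 4 comparisons, from edgeR, with the x axis on the log2 scale. Filled points, at Egr1, Arc, Nr4a1 and Dusp1 in IP against pre-IP, passed an adjusted p of 0.05, and 9 of 10 points lie left of 0 in tau IP against EYFP IP while the pre-IP points lie near it.

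Fos, Fosb and Junb encode basic leucine zipper proteins that form the AP-1 transcription factor. Fos (ENSMUSG00000021250.13, chromosome 12, 85473890 to 85477273, plus strand, GRCm38) had 33.7, 38.0 and 31.2 CPM in the EYFP IP libraries H, I and K and 10.2, 23.1, 17.2 and 24.8 CPM in the tau IP libraries B, C, L and M. All tau IP values lay below all EYFP IP values, and library B was the lowest. The pre-IP libraries had 31.0, 27.1 and 31.5 CPM with EYFP and 29.3, 40.9, 18.9 and 31.3 CPM with tau. There the tau range enclosed the EYFP range, with C high and L low. Means in IP were 34.3 CPM ± 3.43 (SD, n = 3) with EYFP and 18.8 CPM ± 6.60 (SD, n = 4) with tau, a log2 fold change of -0.77 (SE 0.26, unadjusted p 0.0132, edgeR adjusted p 0.319). The interaction estimate for Fos was -0.80 (SE 0.36, edgeR adjusted p 0.820).

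The ratio of IP to pre-IP within an animal separated the treatments for Fos. As a difference of log2 CPM, it was 0.12, 0.49 and -0.01 in H, I and K, and -1.51, -0.82, -0.14 and -0.34 in B, C, L and M. Every tau animal lay below every EYFP animal. Over all animals Fos was not called between fractions (-0.27, SE 0.20, edgeR adjusted p 0.339), and the estimate was positive in EYFP animals alone (0.19), -0.13 without B and -0.41 without I.

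Fosb (ENSMUSG00000003545.3, chromosome 7, 19302696 to 19310051, minus strand), the Fos paralogue whose truncated product accumulates on repeated stimulation, was close to 1 CPM throughout. Its EYFP IP libraries had 1.31, 1.01 and 1.33 CPM, and tau IP had 0.727, 0.907 and 1.49 CPM in C, L and M. Library B held 1 count of Fosb, below the floor of 3 counts (0.0534 CPM), although its homogenate held 48. Pre-IP levels were 1.17 CPM ± 0.148 with EYFP (SD, n = 3) and 1.17 CPM ± 0.320 with tau (SD, n = 4). The groups overlapped in both fractions, and no comparison passed the threshold (tau IP against EYFP IP -0.57, SE 0.89, edgeR adjusted p 0.826). That estimate was -0.16 without B and -1.08 without M, and the one between fractions (-0.28) was -0.07 without B, -0.15 without C and -0.52 without M.

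Junb (ENSMUSG00000052837.6, chromosome 8, 84974484 to 84978718, minus strand), a Jun family partner of Fos, had 20.8, 16.8 and 17.4 CPM in EYFP IP and 8.08, 13.6, 14.8 and 15.6 CPM in tau IP. The tau values were all below the EYFP values, with B again lowest. In pre-IP its level was 18.9 CPM ± 2.01 with EYFP (SD, n = 3) and 20.9 CPM ± 2.46 with tau (SD, n = 4), with overlapping ranges. The difference in IP was -0.40 (SE 0.22, edgeR adjusted p 0.503), and -0.26 without B. Junb was just short of the threshold between fractions (-0.38, SE 0.14, edgeR adjusted p 0.0595) and passed it in 5 of 18 alternatives, over which the adjusted p ran from 0.0352 to 0.902. The end of the Junb annotation overlaps Prdx2 on the opposite strand, which had up to 35275 counts in a library, and the use of strand in counting is not given in the sources used here, so the Junb counts are uncertain.

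**Figure D2:**
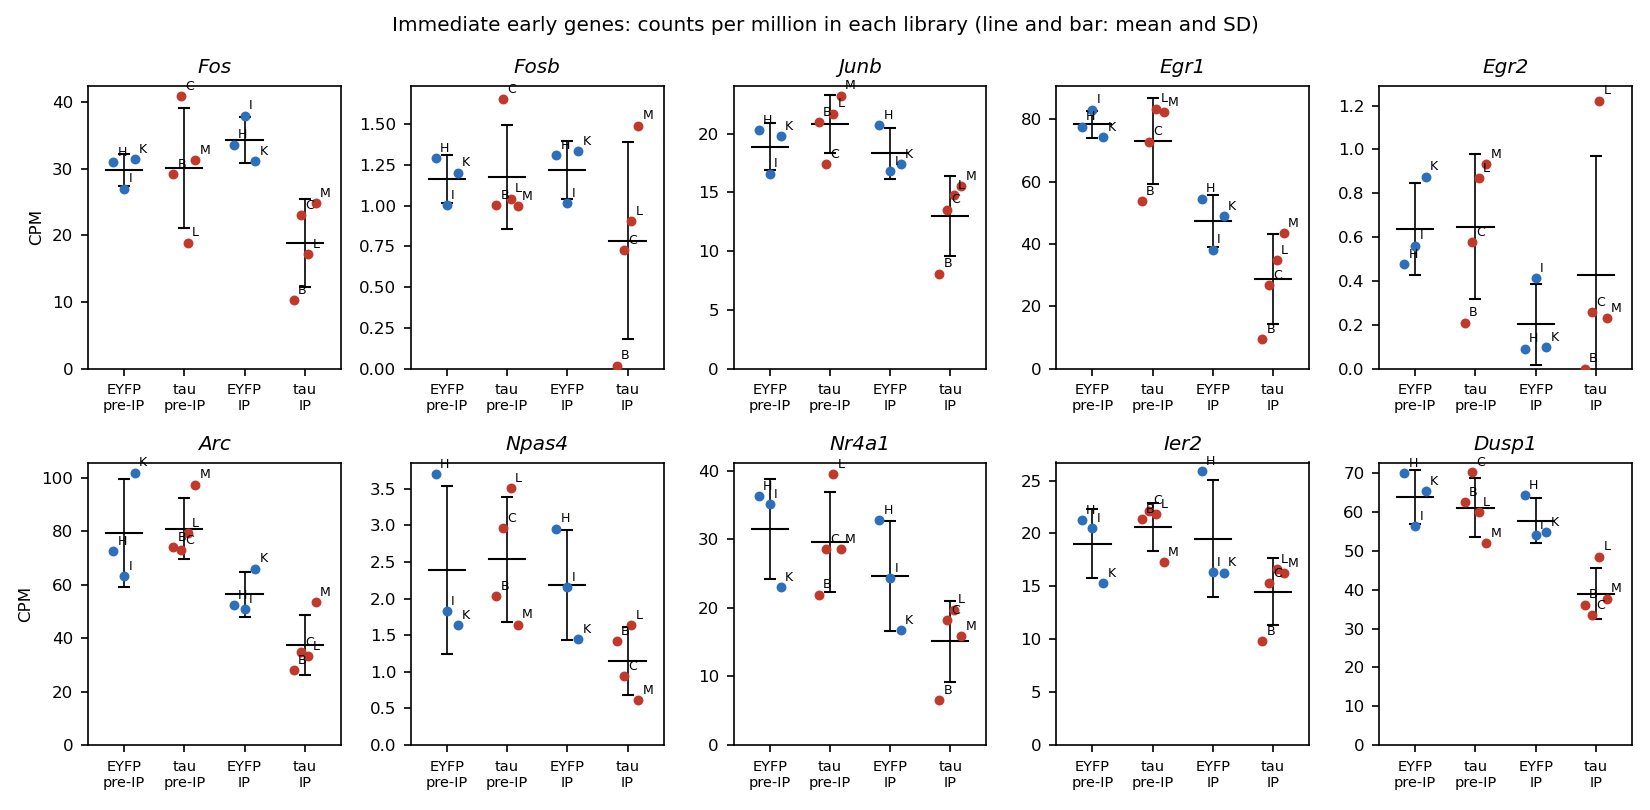
CPM (y axis, linear, from 0) of each gene in each library, by group (x axis); letters name animals, lines and bars give the mean and SD. In tau IP, library B is the lowest for 8 of the 10 genes, and Fos, Junb and Dusp1 show no overlap between the tau and EYFP IP libraries.

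Egr1 and Egr2 encode zinc finger transcription factors of the early growth response family. Egr1 (ENSMUSG00000038418.7, chromosome 18, 34859823 to 34864984, plus strand), which is induced by strong synaptic input and MAP kinase signalling, had 77.6, 83.1 and 74.3 CPM in the EYFP pre-IP libraries H, I and K. The IP libraries of the same animals had 54.5, 38.1 and 49.0 CPM. In tau animals B, C, L and M the values were 53.6, 72.8, 83.5 and 82.2 CPM in pre-IP and 9.50, 26.8, 34.9 and 43.5 CPM in IP. IP was below pre-IP in all 7 animals, and the IP and pre-IP ranges overlapped only through the low pre-IP value of B and the 54.5 CPM of H.

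Egr1 had the largest of the 4 called differences between fractions, a log2 fold change of -1.06 (standard error 0.23, edgeR adjusted p 0.00247). It was also the 1 member called in EYFP animals alone (-0.73, edgeR adjusted p 0.0295), and its adjusted p lay under 0.05 in 18 of 18 alternatives, from 2.92e-05 to 0.0295. Within an animal the log2 ratio of IP to pre-IP was -1.53 ± 0.678 with tau (SD, n = 4) and -0.74 ± 0.331 with EYFP (SD, n = 3), and the groups overlapped through animals I and M. Tau IP against EYFP IP gave -0.64 (SE 0.38, edgeR adjusted p 0.529), and -0.37 without B.

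Egr2 (ENSMUSG00000037868.15, chromosome 10, 67535475 to 67542188, plus strand), known for its role in myelinating Schwann cells and in hindbrain patterning, was near the floor of detection in IP. EYFP IP libraries had 6 to 20 counts, and tau IP libraries had 0 to 62. Library B had 0 counts, which allows up to 0.0534 CPM, and library L had 1.22 CPM, above every other library of either fraction. Pre-IP levels were 0.638 CPM ± 0.210 with EYFP (SD, n = 3) and 0.648 CPM ± 0.331 with tau (SD, n = 4). The positive estimate in tau IP (1.16, SE 1.30, edgeR adjusted p 0.751) became -0.24 without animal L and 2.19 without I, and the one between fractions (-1.05, SE 0.67, edgeR adjusted p 0.261) became -1.76 without L.

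Npas4 encodes a basic helix-loop-helix PAS factor that is induced in neurons by calcium entry and shapes inhibitory synapses. The gene (ENSMUSG00000045903.9, chromosome 19, 4984355 to 4990316, minus strand) had 2.95, 2.15 and 1.45 CPM in EYFP IP and 1.42, 0.940, 1.64 and 0.612 CPM in tau IP. The groups overlapped, since L in tau was above K in EYFP. Its pre-IP values were 3.70, 1.82 and 1.64 CPM with EYFP and 2.03, 2.96, 3.51 and 1.64 CPM with tau, with H and L high. The estimate of -0.80 in tau IP (SE 0.47, edgeR adjusted p 0.530) was the most negative of the 10 and did not pass. All 4 tau animals had a log2 ratio of IP to pre-IP (-0.50 to -1.62) below all 3 EYFP animals (0.23 to -0.32), and the interaction estimate was -0.91 (SE 0.58, edgeR adjusted p 0.838).

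Nr4a1 encodes an orphan nuclear receptor of the Nur77 family that acts as a transcription factor without a known hormone. It (ENSMUSG00000023034.7, chromosome 15, 101254269 to 101274795, plus strand) had 36.3, 35.1 and 23.1 CPM in EYFP pre-IP and 32.7, 24.3 and 16.8 CPM in the IP of the same animals. With tau, pre-IP values were 21.9, 28.6, 39.5 and 28.5 CPM and IP values 6.55, 18.2, 19.7 and 15.9 CPM. IP lay below pre-IP in all 7 animals, and library B was the lowest of the 14. The drop between fractions was -0.68 (SE 0.21, edgeR adjusted p 0.0242). The call was lost without C (adjusted p 0.0546), without L (0.0616), without M (0.0656) and in EYFP animals alone (0.430), and edgeR, DESeq2 and limma alternatives ran from 0.00339 to 0.430. In tau IP the estimate was -0.61 (SE 0.33, edgeR adjusted p 0.50), with overlapping groups, and -0.38 without B as without H.

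Arc, Dusp1 and Ier2 are effectors rather than classical DNA-binding factors. Arc (ENSMUSG00000022602.14, chromosome 15, 74669083 to 74672570, minus strand), a dendritic protein that removes AMPA receptors from synapses, had 72.7, 63.3 and 102.0 CPM in EYFP pre-IP and 74.0, 73.1, 79.2 and 97.5 CPM in tau pre-IP. In IP it had 52.3, 50.9 and 66.1 CPM with EYFP and 28.2, 34.7, 33.4 and 53.6 CPM with tau. Animal M alone among the tau animals reached the EYFP IP range. IP was below pre-IP in all 7 animals, and the drop was -0.81 (SE 0.16, edgeR adjusted p 0.00169). The call held in 17 of 18 alternatives, with adjusted p from 2.93e-05 to 0.188, the last being EYFP animals alone.

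For Arc, tau IP against EYFP IP gave -0.49 (SE 0.22, unadjusted p 0.0489, edgeR adjusted p 0.414). The log2 ratio of IP to pre-IP was -1.14 ± 0.228 with tau (SD, n = 4) and -0.47 ± 0.156 with EYFP (SD, n = 3), without overlap. The interaction was -0.53 (SE 0.31, edgeR adjusted p 0.824).

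Dusp1 encodes a nuclear phosphatase that switches MAP kinases off and so ends the signal that induced it. The gene (ENSMUSG00000024190.7, chromosome 17, 26505590 to 26562128, minus strand) had 64.5, 54.1 and 54.9 CPM in EYFP IP and 36.2, 33.5, 48.6 and 37.7 CPM in tau IP. All tau IP values were below all EYFP IP values, with L the highest of the tau libraries. Pre-IP levels were 63.9 CPM ± 6.95 with EYFP (SD, n = 3) and 61.2 CPM ± 7.53 with tau (SD, n = 4), with overlap. In IP the difference was -0.46 (SE 0.17, unadjusted p 0.0200, edgeR adjusted p 0.339). Between fractions Dusp1 was lower in IP by 0.388 on the log2 scale (log2 fold change -0.39, SE 0.11, edgeR adjusted p 0.0137), in all 7 animals. That call was lost without C (adjusted p 0.0589) and in EYFP animals alone (0.627), while 16 of 18 alternatives held it, over a range from 0.00512 to 0.627. Its annotated span overlaps Ergic1 on the opposite strand, which had up to 16326 counts, so its counts are uncertain in the same way as those of Junb.

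Ier2 (ENSMUSG00000053560.5, chromosome 8, 84661331 to 84662854, minus strand) encodes a small nuclear protein induced by growth factors. It had 25.9, 16.4 and 16.3 CPM in EYFP IP and 9.81, 15.3, 16.7 and 16.3 CPM in tau IP, so that H stood high, B stood low and the other 5 libraries lay together. Pre-IP levels were 19.03 CPM ± 3.26 with EYFP (SD, n = 3) and 20.7 CPM ± 2.27 with tau (SD, n = 4). Neither tau IP against EYFP IP (-0.33, SE 0.23, edgeR adjusted p 0.597) nor the comparison of fractions (-0.23, SE 0.14, edgeR adjusted p 0.234) passed. Without H the first was -0.10 and the second -0.38, which passed with an adjusted p of 0.0468, the 1 of 18 alternatives to do so (range 0.0468 to 0.943). Without B they were -0.21 and -0.14.

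Taken per animal, the members' ratio of IP to pre-IP separated the treatments more often than their IP levels did. Fos, Junb, Arc, Npas4, Nr4a1 and Dusp1, 6 of 10, had all tau animals below all EYFP animals, a pattern that 8.08% of 20495 genes showed, and no member had the reverse, which 3.85% showed. The median over the 10 members was -1.45, -1.07, -0.47 and -0.71 in B, C, L and M and -0.13, -0.19 and -0.22 in H, I and K. Over all genes the median ratio was -0.36 in B and between -0.12 and 0.06 in the other 6 animals. The separation was not particular to the members, since lists of cell type markers described below had it too. Ratios were below 0 in all 7 animals for Egr1, Arc, Nr4a1 and Dusp1, as for 15.4% of genes. These ratios carry no test of their own beside the interaction, which called none of the members.

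**Figure D3:**
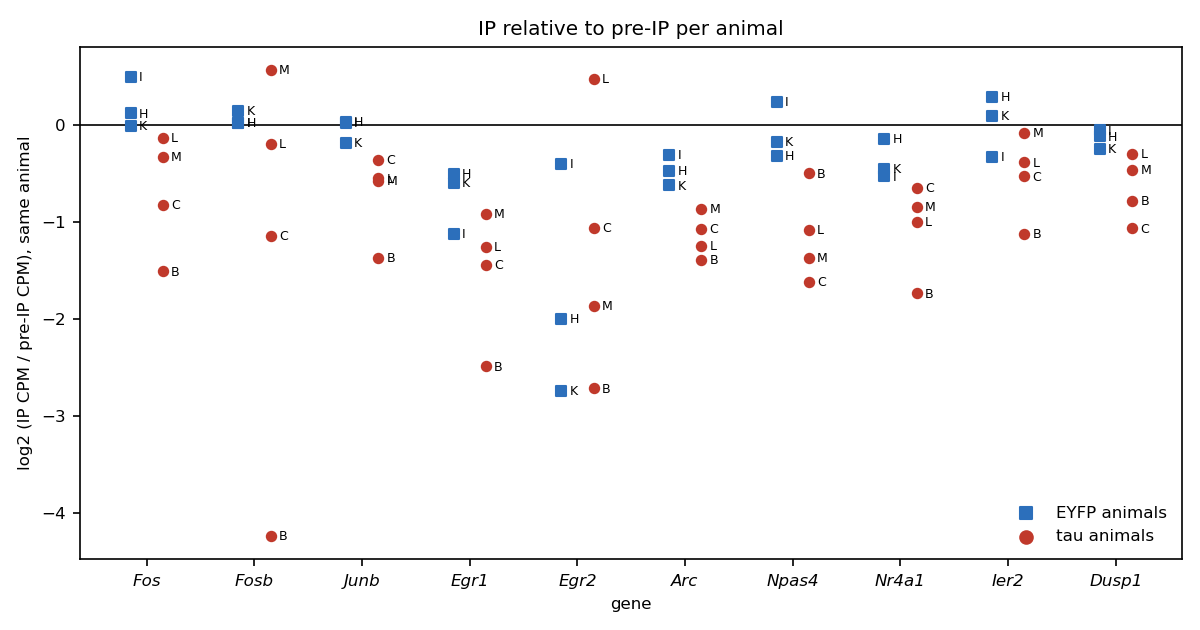
log2 of IP CPM over pre-IP CPM in the same animal (y axis, prior count of 2) for each gene (x axis), with squares for EYFP and circles for tau animals. For Fos, Junb, Arc, Npas4, Nr4a1 and Dusp1 the circles lie below all squares, and the lowest point, Fosb in animal B, rests on 1 count in IP.

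Cell type markers moved with these values. The summed level of 10 noradrenergic neuron markers such as Dbh, Th and Slc6a2 was 772 to 5713 CPM in tau IP and 370 to 435 CPM in EYFP IP, and in pre-IP it was 218 to 249 CPM with tau and 211 to 263 CPM with EYFP. Every one of these markers rose above the floor of 3 counts in some library of each group. In tau IP against EYFP IP, all 10 noradrenergic markers had positive estimates (median 2.82), each with an unadjusted p under 0.05. Estimates were negative for 13 of 13 markers of other neurons (median -0.47), 8 of 8 of astrocytes (-0.51), 8 of 8 of oligodendrocytes (-0.49), 8 of 8 of microglia (-0.42), 9 of 10 of vascular cells (-0.30) and 7 of 8 of meningeal fibroblasts (-0.68). The list for other neurons includes Snap25 and Rbfox3, which are general neuronal genes and not restricted to other neurons. edgeR and limma voom called 0 markers at an adjusted p under 0.05, and DESeq2 called 7, all noradrenergic. Unadjusted edgeR p-values were under 0.05 for 4, 3, 1, 3, 1 and 4 markers of the other 6 lists in the same order. Of all 19472 genes tested, 2336 had such a p in either direction. The members' median of -0.53 thus lay beside those of the 6 lists other than the noradrenergic one. The part of other cells in the result was not tested.

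By animal, the mean log2 ratio of IP to pre-IP of the noradrenergic markers was 4.69, 3.80, 3.78 and 1.96 in B, C, L and M and 0.79, 1.10 and 0.82 in H, I and K. Animal B had both the highest noradrenergic ratio and the lowest member median. Its IP also gave the least RNA, 0.1 ng per microlitre, and its ratios for other neurons (-1.10), astrocytes (-1.23) and oligodendrocytes (-1.45) were the lowest of the 7. In each marker list except the noradrenergic one, the mean ratio of every tau animal lay below that of every EYFP animal. For other neurons the nearest values were -0.019 in L and 0.162 in K, and for astrocytes -0.223 in L and 0.01 in K. The gap was narrowest for vascular cells, with -0.027 in M and -0.009 in I. Without B the median of the members in tau IP against EYFP IP was -0.38, and 9 of 10 remained negative.

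**Figure D4:**
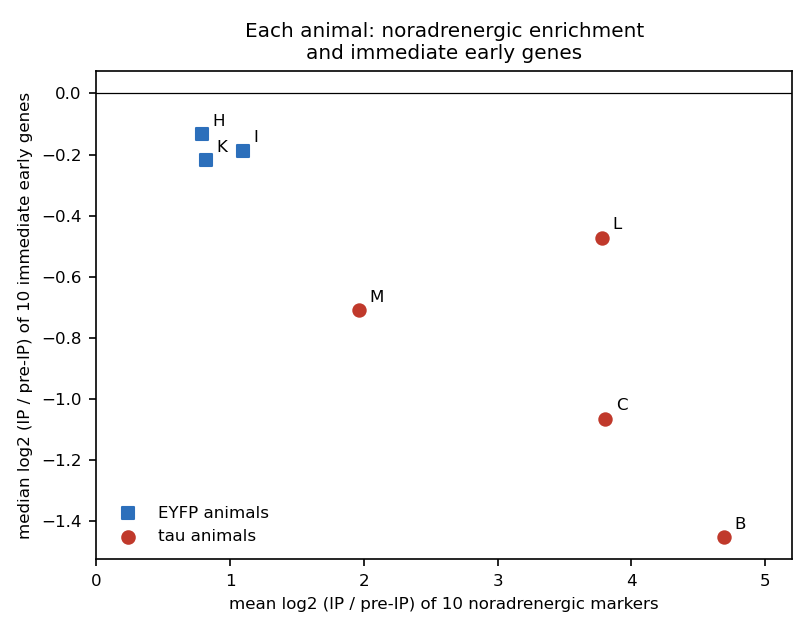
Each point is an animal, with the mean log2 IP over pre-IP ratio of 10 noradrenergic markers on the x axis and the median of the same ratio over the 10 immediate early genes on the y axis. EYFP animals (squares) lie between 0.79 and 1.10 on x and between -0.22 and -0.13 on y, and the tau animals (circles) lie to the right of them and below them.

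The library numbers in the labels fall into 2 ranges, up to 11 (B, C, H and I) and from 17 (K, L and M). Within the first range all 10 members were lower in tau IP, with a median difference of mean log2 CPM of -1.15. In the second, where K is the single EYFP animal, 7 of 10 were lower with a median of -0.27. Fos differed by -1.22 and -0.60 in the 2 ranges, Arc by -0.72 and -0.64, Dusp1 by -0.76 and -0.36 and Junb by -0.83 and -0.20. Nr4a1 differed by -1.36 in the first and by 0.08 in the second, Egr2 by -1.20 and 2.09 and Ier2 by -0.75 and 0.02, so the direction of these 3 genes did not hold within both. In pre-IP the members' median was 0.06 and 0.10.

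Other genes of the same response were examined for comparison. Of 36 further rapid response genes 35 were tested (Fosl1, with at most 8 counts, was not), and in IP against pre-IP 9 were lower and 1 was higher at an edgeR adjusted p under 0.05, with a median of -0.31. Csrnp1, a nuclear regulator of transcription (-1.09, SE 0.16, edgeR adjusted p 0.000180), Egr3, the paralogue of Egr1 (-0.81, edgeR adjusted p 0.0153), and Dusp6, a cytoplasmic phosphatase of ERK (-0.76, edgeR adjusted p 0.0316), were lower. The 1 that was higher was Nr4a3, a paralogue of Nr4a1, at 2.48 (SE 0.72, edgeR adjusted p 0.0162). Nr4a3 had 13.8 CPM ± 10.2 in tau IP (SD, n = 4) but 1.46 CPM ± 0.362 in EYFP IP (SD, n = 3), 0.944 ± 0.529 in tau pre-IP and 1.24 ± 0.414 in EYFP pre-IP. All tau IP values, from 2.28 to 25.1 CPM, lay above the EYFP IP range of 1.15 to 1.86 CPM. In tau IP against EYFP IP its estimate was 3.38 (SE 0.74, unadjusted p 0.00109, edgeR adjusted p 0.318), the opposite sign to Nr4a1, and its interaction was 3.77 (edgeR adjusted p 0.336). DESeq2 called Nr4a3 in the interaction, the 1 gene of the 4 further lists that it called there, but not in tau IP against EYFP IP. In the latter DESeq2 gave no adjusted p for Fos, whose IP levels were higher in both groups, so Nr4a3 may not have been open to a call. With limma voom Nr4a3 was called in neither comparison. In pre-IP Klf2, a zinc finger factor of the Krüppel-like family, had the smallest p of the list (-0.89, SE 0.36, edgeR adjusted p 1.0).

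Among the 11 genes of the list named late response, 4 were higher and 2 lower in IP, with a median of 0.28. Inhba (1.13), Pcsk1 (0.67) and Rgs2 (0.57) were the leading ones that were higher, with edgeR adjusted p of 0.000309, 0.0324 and 0.00186. Vgf, a neuropeptide precursor, was lower (-0.53, edgeR adjusted p 0.0262), as was Nrn1 (-0.30, edgeR adjusted p 0.0307). In tau IP against EYFP IP Vgf had the smallest p of that list, at -0.66 (SE 0.16, unadjusted p 0.00219, edgeR adjusted p 0.318), and the interaction gave -0.70 (edgeR adjusted p 0.820). In pre-IP Tiparp had the smallest p (-0.32, edgeR adjusted p 1.0).

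Of 26 upstream kinases, phosphatases and transcription factors, 8 were lower and 1 was higher in IP, with a median of -0.08. Elk1, an ETS partner of SRF (-0.99, edgeR adjusted p 0.000249), and the RSK kinases Rps6ka2 (-0.96, edgeR adjusted p 0.000544) and Rps6ka1 (-0.88, edgeR adjusted p 0.000180) were lower, and Ppp3ca, the catalytic subunit of calcineurin, was higher (0.58, edgeR adjusted p 0.0212). Ep300, a histone acetyltransferase and coactivator of CREB, had the smallest p of the list in both treatment comparisons (-0.78 in IP, edgeR adjusted p 0.434, and -0.41 in pre-IP, edgeR adjusted p 1.0), and Elk1 in the interaction (-0.49, edgeR adjusted p 0.824).

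Heat shock genes, which encode chaperones, were higher in IP for 7 of 12 and lower for 0, with a median of 0.45. Hsp90aa1 had 952 CPM ± 262 in EYFP IP (SD, n = 3) and 829 CPM ± 181 in tau IP (SD, n = 4) against 192 ± 37.5 and 210 ± 69.2 in pre-IP, a log2 fold change of 2.17 (standard error 0.19, edgeR adjusted p 1.47e-05). Hspe1 (0.90, edgeR adjusted p 0.00537) and Hspd1 (0.83, edgeR adjusted p 0.000438) followed. The 10 members thus had a median of the opposite sign to this list in the same comparison. Hspe1 had the smallest p of the list in tau IP against EYFP IP (1.04, edgeR adjusted p 0.318), in pre-IP (0.19, edgeR adjusted p 1.0) and in the interaction (0.87, edgeR adjusted p 0.820).

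Across these 4 lists, edgeR and limma voom called 0 genes in tau IP against EYFP IP and DESeq2 called 2 (Vgf, lower, and Hspe1, higher). With edgeR, 10 were at an unadjusted p under 0.05 (6 rapid response, 3 late response, 0 upstream and 1 heat shock). Of all 19472 genes tested, 2336 were at that level in either direction. The medians of the 4 lists in that comparison were -0.29, -0.24, -0.19 and -0.07, each less negative than that of the members.

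**Figure D5:**
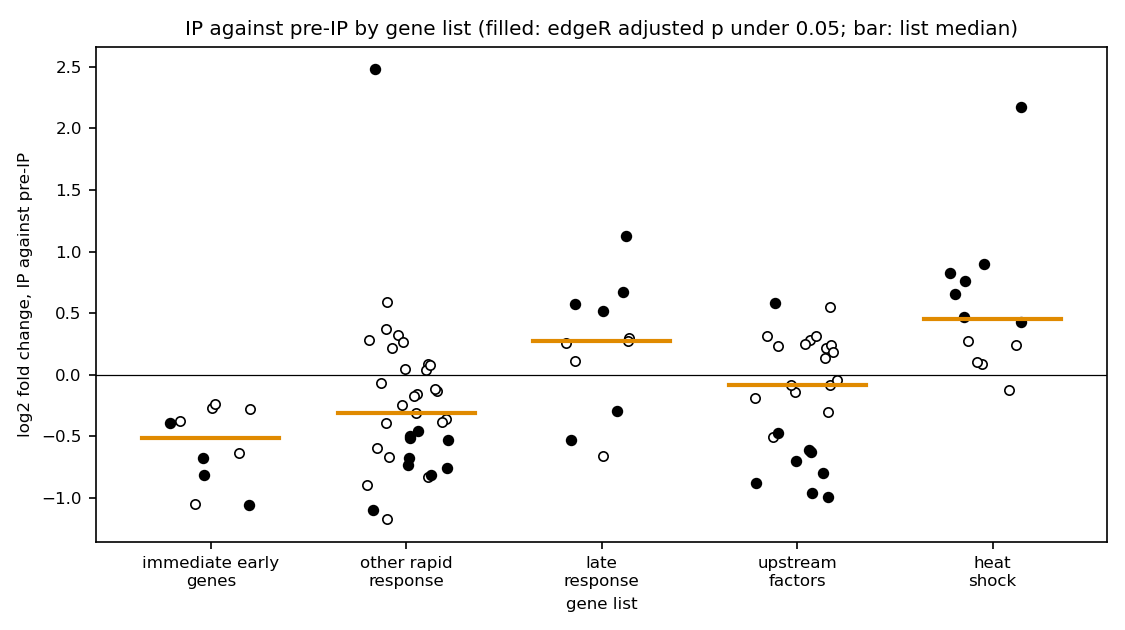
log2 fold change of IP against pre-IP (y axis) for each gene tested (points) of the 10 immediate early genes and 4 further lists (x axis), with filled points at an edgeR adjusted p under 0.05 and bars at the list medians. The members' bar lies at -0.51 and that of the heat shock genes at 0.45, and the highest point among the other rapid response genes is Nr4a3 at 2.48.

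How far the members varied together differed between fractions. Over the 7 IP libraries the 45 pairs of members had a median Pearson correlation of log2 CPM of 0.68 (from -0.04 for Egr2 with Npas4 to 0.98 for Junb with Egr1), and 44 were positive. Over the 7 pre-IP libraries the median was -0.03, from -0.84 for Arc with Ier2 to 0.85 for Egr1 with Egr2, and 21 were positive. The IP libraries include both treatments and library B, so these values are a description of 7 points split by treatment. The genes most like the mean of the members were Fam81a, Sipa1l1, Gramd1b, Zfp582 and Nckap1l in IP (r of 0.999 to 0.994 over 7 libraries, out of 15054 genes). In pre-IP they were Ap4b1, 1700008J07Rik, Gm48623, Tbc1d1 and Daxx (0.981 to 0.951, out of 14986 genes).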

How the data were processed

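Raw read counts, as whole numbers for each gene in each library, were deposited for 55421 mouse genes and a human tau construct. Per the labels' protocols, polyadenylated RNA was amplified with a SMART-Seq kit and made into libraries with Nextera XT. The submitters' processing notes name FastQC, Trim Galore, STAR and featureCounts and the build GRCm38/mm10, without roles or versions. Whether strand was used, and how multi-mapping reads were treated, is not given in the sources used here. An RNA integrity score (RIN) is in the deposited sample sheet, and per the file headers the RNA concentration. The percent of reads past quality cuts and the GC percent were deposited there too and entered no result. Because the count table's header has 2 stray cells, its columns were read by position, and construct counts then matched those on the sheet. Symbols came from the deposited gene table, where 3766 entries had none, and 3669 of these were named from a separate reference list of gene names.

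The 10 genes and the further lists were chosen with earlier results of these data known. CPM were counts per 1000000 counts of the library, and CPM per kb used the deposited exon length. Tests used edgeR 4.0.16 under R 4.3.3 (quasi-likelihood F test) for all genes kept by filterByExpr. Libraries were scaled by TMM, the trimmed mean of M-values, and p-values were adjusted by Benjamini-Hochberg with a threshold of 0.05. The standard error was the log2 fold change over the square root of F. Each treatment comparison used the 7 libraries of its fraction, IP against pre-IP used all 14 with treatment as a term, and the interaction used 4 group means. The fits were tested on simulated data. The ratio of IP to pre-IP per animal used a prior count of 2.

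The animal letter pairs the fractions of an animal: deviations from the group means correlated at 0.148 to 0.358 within the 7 animals. All 10 members were named, and of each further list up to 3 genes a direction with the largest change among those called in IP against pre-IP, or where none was called the gene of smallest p. The genes most like the members were the 5 with the highest correlation with their mean log2 CPM, among genes with a mean of at least 1 CPM in the fraction.

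Alternatives were the size factors and the Wald test of DESeq2 1.42.0, limma 3.58.1 (voom, quality weights), every gene with a count or only those averaging 50 or more, a covariate for sex label or for library-number range, all 14 libraries in 1 fit, pairing by animal in a block, fits of tau or EYFP animals by themselves, each animal left out, a prior count of 0.5 and TMM library sizes for the ratios, and, chosen after seeing the data, library totals without scaling.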

Additional observations from a re-analysis of the deposited data

Results flagged for a closer look

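In 2 of the 30 groups of 4 or more libraries or animals tested, a single value stood apart from the others by Dixon's criterion at the 95% level, which chance alone meets in about 1 in 20 groups. Fosb in tau pre-IP was 1.65 CPM in animal C, against 0.999 to 1.04 CPM in B, L and M. Ier2 in tau pre-IP was 17.3 CPM in animal M, the animal whose sex-linked counts went against its label, against 21.4 to 22.2 CPM in the other 3.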

How the results depend on the processing

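In tau IP against EYFP IP, in pre-IP and in the interaction, 0 members were called by edgeR, DESeq2 or limma voom under every alternative run. In tau IP against EYFP IP, DESeq2 gave an adjusted p only for Arc and Dusp1 and could make no call on the other members. Over all genes, the calls in tau IP against EYFP IP numbered 0 in the test reported, 411 with DESeq2, 113 without a filter on low counts, 200 with all 14 libraries in 1 fit, and 0 to 128 with 1 animal left out (128 without M). In pre-IP they were 44 without a filter and 0 to 1 with an animal left out. In the interaction they were 52 with DESeq2, 67 without a filter and 0 to 56 with an animal left out (56 without M). IP against pre-IP gave 1218 genes and 1 member in EYFP animals alone, and 4223 to 5898 genes and 2 to 6 members with an animal left out. The cause of these differences was not tested.

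The animal as a replicate block gave 6105 genes and 4 members in IP against pre-IP and 0 in the interaction, and changed the call of no member, against 5819 genes without the block. Estimates changed sign in EYFP animals alone for Fos (0.19), Fosb (0.064) and Ier2 (0.037), in pre-IP for Egr2 with limma voom (-0.018), and with the library-number covariate for Egr2 (-0.20) and Arc (-0.011). With 1 animal left out, Egr2 ran from -0.24 to 2.19 in tau IP and from -0.085 to 2.21 in the interaction. The same ranges in pre-IP were -0.14 to 0.19 for Fos, -0.17 to 0.094 for Fosb, -0.16 to 0.043 for Egr1, -0.21 to 0.38 for Egr2, -0.10 to 0.32 for Arc, -0.08 to 0.52 for Npas4, -0.23 to 0.063 for Nr4a1 and -0.13 to 0.012 for Dusp1. Egr2 was not tested at a mean of at least 50 counts. Depth limits Egr2, Fosb and Npas4, whose IP libraries held as few as 0, 1 and 32 counts.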
